A study of Homo sapiens with 10 samples.

Results

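The 39 genes described here encode ER chaperones, heat shock proteins and the factors that work with them. They form a list of names with no threshold on a measured value, though it was drawn up with earlier results of these data known. All 39 were found among the 34567 genes of the count table. The study changed the level of MEOX2, a homeobox transcription factor, in 2 established human glioblastoma cell lines and sequenced poly(A) mRNA. SNB19 cells received a scramble siRNA (NC, 3 libraries) or an siRNA against MEOX2 (siMEOX2, 3 libraries), by lipid transfection. U87 cells carried an empty lentiviral vector (EV, 2 libraries) or a lentivirus that overexpresses MEOX2 (OE, 2 libraries), and both U87 lines had been selected with puromycin. All cells were grown in DMEM with serum. The U87 lines were stable, so an effect of MEOX2 and a difference between the selected lines cannot be told apart. The siMEOX2 libraries all carry the name m3 in their titles, and which siRNA of the study this is was not stated. In SNB19 an effect of MEOX2 and an effect of the siRNA on other RNAs therefore cannot be told apart. Nothing in the labels says that libraries of a group came from separate cultures, so the p-values measure the spread between these libraries, which may be technical.

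Proteins that enter the endoplasmic reticulum (ER) are folded there by chaperones. HSPA5 (BiP) is the ER member of the Hsp70 family, HSP90B1 (GRP94) the ER Hsp90, CALR and CANX bind glycoproteins through their sugars, and the protein disulfide isomerases form disulfide bonds. When unfolded proteins accumulate, the sensors IRE1 (encoded by ERN1), ATF6 and PERK start the unfolded protein response. IRE1 splices XBP1 mRNA into the form that encodes an active factor, and PERK acts through ATF4. In the cytosol, heat shock factors induce HSPA1A, HSPA1B, DNAJB1, HSPH1, HSPB1 and BAG3, while HSPA8 and HSP90AB1 are abundant in unstressed cells. HSPA9, HSPD1 and HSPE1 fold proteins in mitochondria. Glioblastoma cells are known for high levels of several of these proteins.

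Response elements are known for many of these genes, and some promoter copies are shown because members that carry the same element moved in different directions below. The ER stress element is CCAAT, then 9 bases, then CCACG. The heat shock element was searched as 3 alternating GAA and TTC units with 2 bases between them. Both strands of RefSeq promoters (GRCh38.p14, 250 bases before to 50 after each start) were searched, and 36 of the 39 members had a promoter; CRYAB, FKBP4 and PDIA3 were not matched. The ER stress element was present in 7 members (CALR, CANX, CRELD2, HSP90B1, HSPA5, PDIA6 and XBP1) and in 0.0769% of all 35116 promoters. The heat shock element was present in 6 members (CHORDC1, DNAJA1, HSP90AA1, HSP90AB1, HSPA8 and HSPD1) and in 0.49% of all promoters. The shorter UPR element TGACGTGG was found in HYOU1 alone among members and in 0.729% of promoters. A match describes the letters, not binding. Only exact copies were counted, so a gene without a match can still carry an altered or more distant copy. In the lines below capitals mark the element and the flanks are in lower case, read 5′ to 3′ on the gene's strand.
HSPA5, chr9:125241371-125241429, minus strand: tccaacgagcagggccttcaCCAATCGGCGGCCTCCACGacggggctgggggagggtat
XBP1, chr22:28800583-28800641, minus strand: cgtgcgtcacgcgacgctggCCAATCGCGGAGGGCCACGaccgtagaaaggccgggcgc
CRELD2, chr22:49918534-49918592, plus strand: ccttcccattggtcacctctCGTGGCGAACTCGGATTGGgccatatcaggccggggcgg
CALR, chr19:12938364-12938422, plus strand: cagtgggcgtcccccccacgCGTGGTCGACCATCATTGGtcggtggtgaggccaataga
PDIA6, chr2:10812833-10812891, minus strand: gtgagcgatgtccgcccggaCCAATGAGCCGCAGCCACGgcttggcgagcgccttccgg
HSP90AB1, chr6:44247811-44247863, plus strand: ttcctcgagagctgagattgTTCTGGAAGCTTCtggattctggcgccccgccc
HSPA5, XBP1 and PDIA6 carry the ER stress element in the direction of the gene, whereas CRELD2 and CALR carry it on the other strand. HSP90AB1 carries the heat shock element. The RefSeq starts used for PDIA6, HSP90AB1 and CRELD2 lie 25192, 1777 and 467 bases downstream of the most upstream start that GENCODE 29 gives these genes.

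Each library held 12533775 to 16560324 gene counts. MEOX2 (chromosome 7, 15611212 to 15686812, minus strand) had 249, 224 and 275 counts in the NC libraries and 54, 40 and 49 in the siMEOX2 libraries, and so fell by 81.2%, with every siMEOX2 library below every NC library (log2 fold change −2.41 ± 0.14 SE, adjusted p = 1.35e-11 by edgeR's quasi-likelihood test). It had 0 counts in both EV libraries and 4999 and 5308 in the OE libraries, at least 1699-fold higher than 3 counts in an EV library. VIM and CD44, which mark glioma cells, were at least 13.0 FPKM in every library. Both were lower in siMEOX2 (81.4 to 86.1 and 13.0 to 14.0 FPKM) than in NC (160 to 163 and 28.2 to 29.3). In U87, VIM was lower in OE (117 to 119 FPKM) than in EV (241 to 687). CD44 in OE (66.0 to 69.4 FPKM) lay within the span of EV (58.1 to 74.6). NES was lower in siMEOX2 (3.72 to 4.93 FPKM) than in NC (9.22 to 10.5). NES was also lower in OE (0.187 to 0.221 FPKM) than in EV (2.51 to 3.04). OLIG2 was higher in siMEOX2 than in NC, and higher in OE (at least 5.93 FPKM) than in EV (at most 1.61). Unlike VIM and CD44, GFAP stayed at or below 0.397 FPKM, S100B at or below 0.222 FPKM and AQP4 at or below 0.0212 FPKM. SOX2 was 12.4 to 14.4 FPKM in NC, 5.18 to 6.94 in siMEOX2 and at most 0.0283 in EV. Of the markers of other cell types, KRT8, an epithelial keratin, was 41.7 to 45.0 FPKM in NC, 24.1 to 27.7 in siMEOX2 and at most 0.333 in U87. The epithelial CDH1 went the other way, from between 0.142 and 0.235 FPKM in NC to between 0.691 and 0.735 in siMEOX2. EPCAM, also epithelial, overlapped, at 0.153 to 0.434 FPKM in NC and 0.249 to 0.338 in siMEOX2. The endothelial PECAM1 was 4.11 to 4.59 FPKM in NC and 0.583 to 0.853 in siMEOX2, and the myeloid CSF1R 3.48 to 4.06 and 0.973 to 1.43. The part of these markers in the results below was not tested.

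EV 1 stood apart from the other libraries, and the members' U87 results are therefore given with and without it. Its gene counts correlated with those of EV 2 at r = 0.878 on the log scale, against at least 0.9927 within each other group. Ribosomal protein genes took 14.8% of its counts (4.61% to 7.50% elsewhere), and genes shorter than 1000 bases took 5.38% (2.44% to 2.94% elsewhere). The members followed the same line: over the 37 members with at least 10 counts in both EV libraries, the log2 ratio of EV 1 to EV 2 fell with gene length (Pearson's r = -0.69, Spearman's rho = -0.61, across genes, which are not independent). The short genes HSPB1 and HSPE1 were 1114 against 319 FPKM and 37.7 against 11.7 FPKM, while the long genes HYOU1 and SEL1L were 11.0 against 52.3 FPKM and 12.9 against 42.3 FPKM. In all, 12 of these 37 members differed over 2-fold between the EV libraries, as did 40.4% of all genes. Over the same members the ratio rose with length for NC 1 to NC 2 (r = 0.49) and OE 1 to OE 2 (r = 0.43). None of the 37 differed over 2-fold in either of those pairs. Over all genes r was -0.52 for the EV pair, 0.08 for NC 1 to NC 2 and 0.16 for the OE pair. What made EV 1 differ was not tested.

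**Figure D1:**
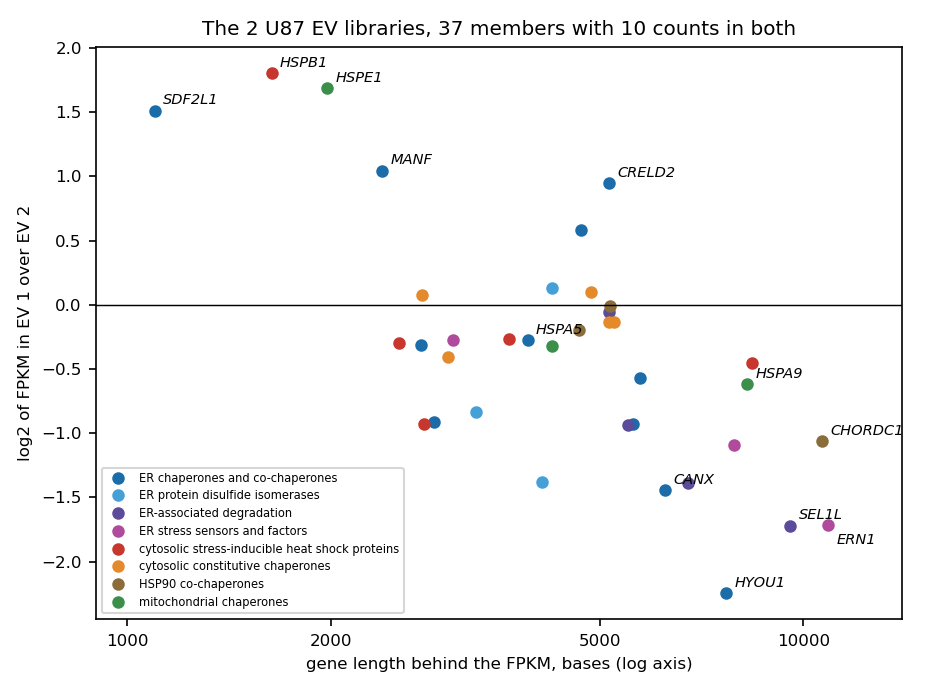
Log2 ratio of FPKM in EV 1 over EV 2 (vertical axis) against the gene length behind the FPKM on a log axis, in bases, 1 point per member, coloured by role. SDF2L1, HSPB1 and HSPE1 at the short end lie above 0 and HYOU1, SEL1L and ERN1 at the long end lie below it, with r = -0.69 over 37 members.

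After MEOX2 knockdown in SNB19, all 5 tested members of the stress-inducible cytosolic group (HSPA1B, DNAJB1, HSPB1, BAG3 and HSPH1) fell. Of the 5 members grouped as constitutive cytosolic chaperones, 3 fell and 2 rose (HSP90AA1 and HSPA4). HSP90AA1 is itself inducible, so the first statement holds for the group as drawn up here. Of the 37 members tested, 13 rose and 17 fell at adjusted p below 0.05, against 27.4% of all 15525 tested genes higher and 28.5% lower. In all, 55.9% of tested genes passed, and the members' shares are to be read beside that. With upper-quartile scaling, which shifted the median of all genes by 0.06 (log2), 15 members rose and 12 fell, so the balance of directions depends on the scaling. The median log2 fold change was 0.02 over the members and 0.01 over all genes, so the members did not move as a block. HSPA1A and CRYAB had too few counts to be tested (at most 3 and 8 counts in any SNB19 library). Because these are bulk libraries, fewer cells of a kind and less RNA per cell cannot be told apart.

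HSPA1B, an inducible cytosolic Hsp70, fell the most. It was 15.3, 16.8 and 15.4 FPKM in NC and 5.51, 3.67 and 3.46 FPKM in siMEOX2, and the groups did not overlap (3.92-fold lower, log2 −1.97 ± 0.12, adjusted p = 3.57e-11). HSPA1A, its near-identical neighbour, was at 0.0486 to 0.0778 FPKM in NC. Since 67.1% of the 150-base windows of HSPA1A and 70.03% of those of HSPA1B also occur in other genes, each other's included, the split of reads between the pair is uncertain. DNAJB1, the Hsp40 that feeds clients to Hsp70, was 32.1, 34.3 and 33.4 FPKM in NC and 17.5, 14.8 and 13.3 in siMEOX2 (log2 −1.20 ± 0.08). HSPB1, the small heat shock protein Hsp27, was 710, 771 and 661 FPKM in NC and 413, 347 and 315 in siMEOX2 (log2 −1.07 ± 0.08, adjusted p = 2.69e-10). In both cases every siMEOX2 library lay below every NC library. BAG3, which couples Hsp70 to autophagy, and HSPH1, an Hsp70 nucleotide exchange factor, fell less, by 0.55 and 0.46 on the log2 scale.

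The constitutive cytosolic chaperones divided. HSP90AB1, the constitutive Hsp90, was 712, 725 and 711 FPKM in NC and 340, 327 and 318 in siMEOX2 (2.30-fold lower, log2 −1.20 ± 0.05, adjusted p = 1.70e-14). Its inducible partner HSP90AA1 was 296, 295 and 296 FPKM in NC and 363, 331 and 334 in siMEOX2, a rise of 0.14 ± 0.05 (log2). The ratio of HSP90AB1 to HSP90AA1, per length, thus went from between 2.40 and 2.46 in NC to between 0.935 and 0.988 in siMEOX2. HSPA8, the constitutive Hsp70, was 272, 277 and 278 FPKM in NC and 184, 158 and 163 in siMEOX2 (1.72-fold lower, log2 −0.78 ± 0.05, adjusted p = 1.66e-10). DNAJA1, another Hsp40, fell by 0.55 ± 0.07 and HSPA4, an Hsp110 relative, rose by 0.25 ± 0.04 on the log2 scale. Among HSP90 co-chaperones, the immunophilin FKBP4 rose by 0.35 and CHORDC1 by 0.26 (log2), whereas STIP1, which bridges Hsp70 and Hsp90, fell by 0.14 (log2), a call that was lost without NC replicate 1, 2 or 3 or siMEOX2 replicate 2 or 3 (adjusted p of 0.055 to 0.23).

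**Figure D2:**
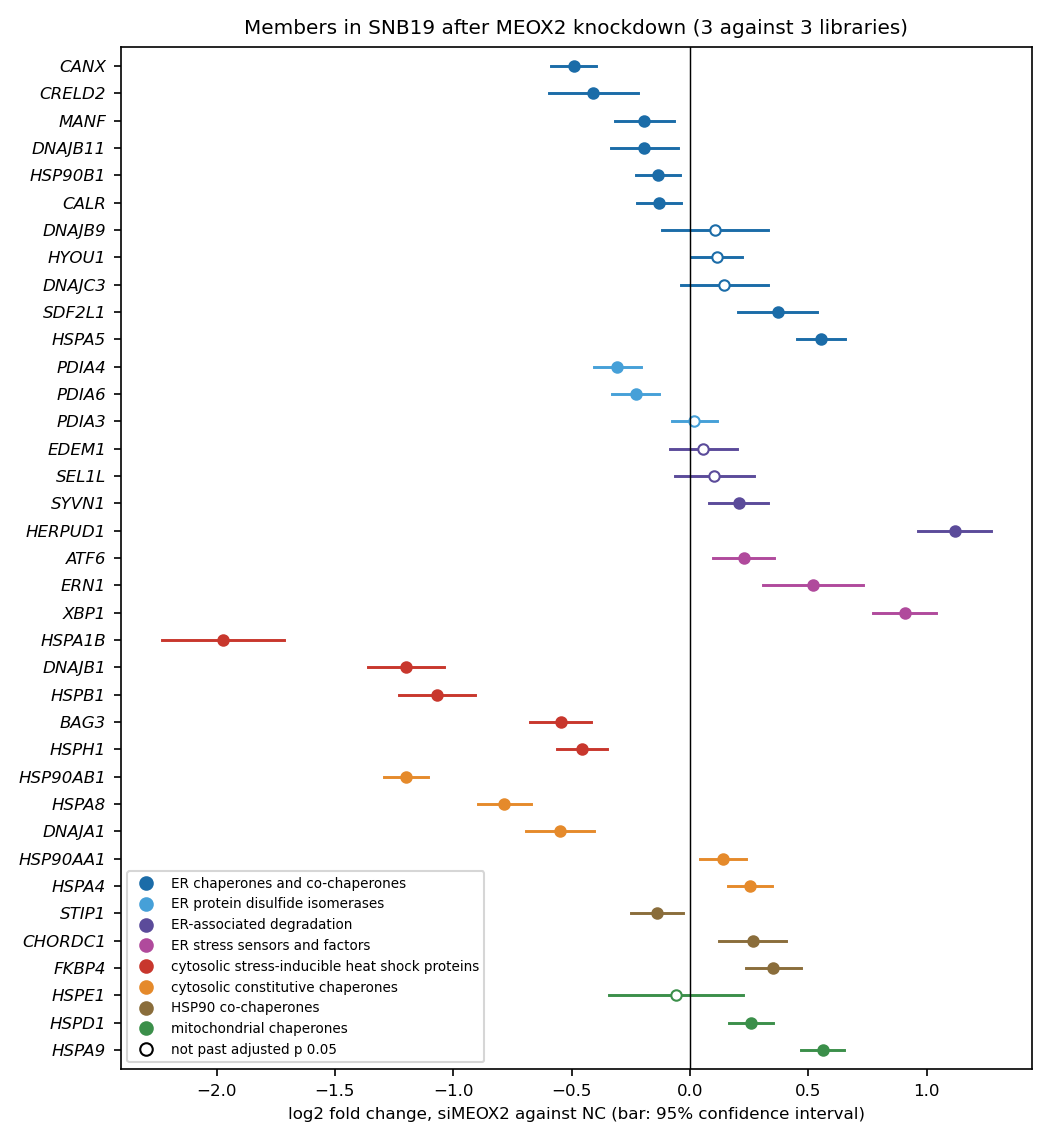
Log2 fold change of siMEOX2 against NC in SNB19 for the 37 tested members, grouped and coloured by role; bars are 95% confidence intervals and open points did not pass adjusted p 0.05. All 5 tested members of the stress-inducible cytosolic group lie left of 0, and HERPUD1, XBP1, HSPA9 and HSPA5 lie farthest right.

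In the ER the 3 members grouped as sensors and factors (XBP1, ERN1 and ATF6) rose. The sensor PERK is not a member, and its gene EIF2AK3, given further below, fell. Of 4 degradation genes 2 rose, and of the 11 chaperones 2 rose and 6 fell. HERPUD1, a component of ER-associated degradation, was 11.4, 10.9 and 12.2 FPKM in NC and 23.2, 29.6 and 26.4 in siMEOX2 (2.17-fold higher, log2 1.12 ± 0.07, adjusted p = 6.69e-11). XBP1 was 22.8, 20.6 and 20.4 FPKM in NC and 38.7, 43.8 and 43.7 in siMEOX2 (log2 0.91 ± 0.06, adjusted p = 2.00e-10). Gene counts cannot separate the spliced from the unspliced XBP1 mRNA. HSPA5 was 185, 185 and 181 FPKM in NC and 262, 299 and 290 in siMEOX2 (1.47-fold higher, log2 0.55 ± 0.05, adjusted p = 5.98e-09). In each of these genes the lowest siMEOX2 library exceeded the highest NC library. ERN1 rose by 0.52 ± 0.10 and ATF6 by 0.23 ± 0.06 (log2). SDF2L1, a BiP cofactor, rose by 0.37 ± 0.08 (log2) and SYVN1, the ubiquitin ligase of ER-associated degradation, by 0.21 ± 0.06 (log2).

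The other ER chaperones and the disulfide isomerases fell or did not pass the test. CANX was 142, 140 and 142 FPKM in NC and 99.5, 110 and 109 in siMEOX2 (log2 −0.49 ± 0.05, adjusted p = 1.52e-08). CRELD2, a secreted ER stress protein, fell by 0.41 ± 0.09, PDIA4 by 0.31 ± 0.05 and PDIA6 by 0.23 ± 0.05 (log2). MANF, DNAJB11, HSP90B1 and CALR fell by 0.13 to 0.19 (log2), and each of these 4 calls was lost without at least 1 library. The losses came without NC replicate 1 for DNAJB11, without NC replicate 2 for DNAJB11, CALR and MANF, without NC replicate 3 for HSP90B1, and without siMEOX2 replicate 3 for HSP90B1, DNAJB11 and CALR (adjusted p of 0.051 to 0.12). HSP90B1 was 118, 120 and 124 FPKM in NC and 113, 118 and 116 in siMEOX2, so the groups overlapped. DNAJB9, DNAJC3, HYOU1, SEL1L, EDEM1 and PDIA3 did not pass the test, with log2 values of 0.02 to 0.15. The 95% interval of PDIA3 ran from −0.08 to 0.11. Of the 7 members whose promoter holds the ER stress element, HSPA5 and XBP1 rose and CRELD2, PDIA6, CANX, HSP90B1 and CALR fell. Of those with the heat shock element, HSP90AB1, HSPA8 and DNAJA1 fell and HSPD1, CHORDC1 and HSP90AA1 rose. The 5 tested members of the stress-inducible cytosolic group, which all fell, had no exact match and are not among these. The HSP90AA1 call was lost without NC replicate 1 or 3 (adjusted p = 0.075 and 0.071).

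Mitochondrial chaperones were higher after knockdown where they changed. HSPA9, mitochondrial Hsp70, was 81.9, 80.5 and 82.6 FPKM in NC and 123, 127 and 131 in siMEOX2 (1.48-fold higher, log2 0.56 ± 0.04, adjusted p = 9.44e-10). HSPD1 (Hsp60) rose by 0.26 ± 0.04 (log2). HSPE1, its co-chaperonin, was 8.25 to 11.5 FPKM in NC and 8.20 to 12.6 in siMEOX2 and did not pass the test. It shares 23.9% of its exonic bases with HSPD1 on the other strand and with HSPE1-MOB4, and whether counting used strand is not given in the sources used here.

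**Figure D3:**
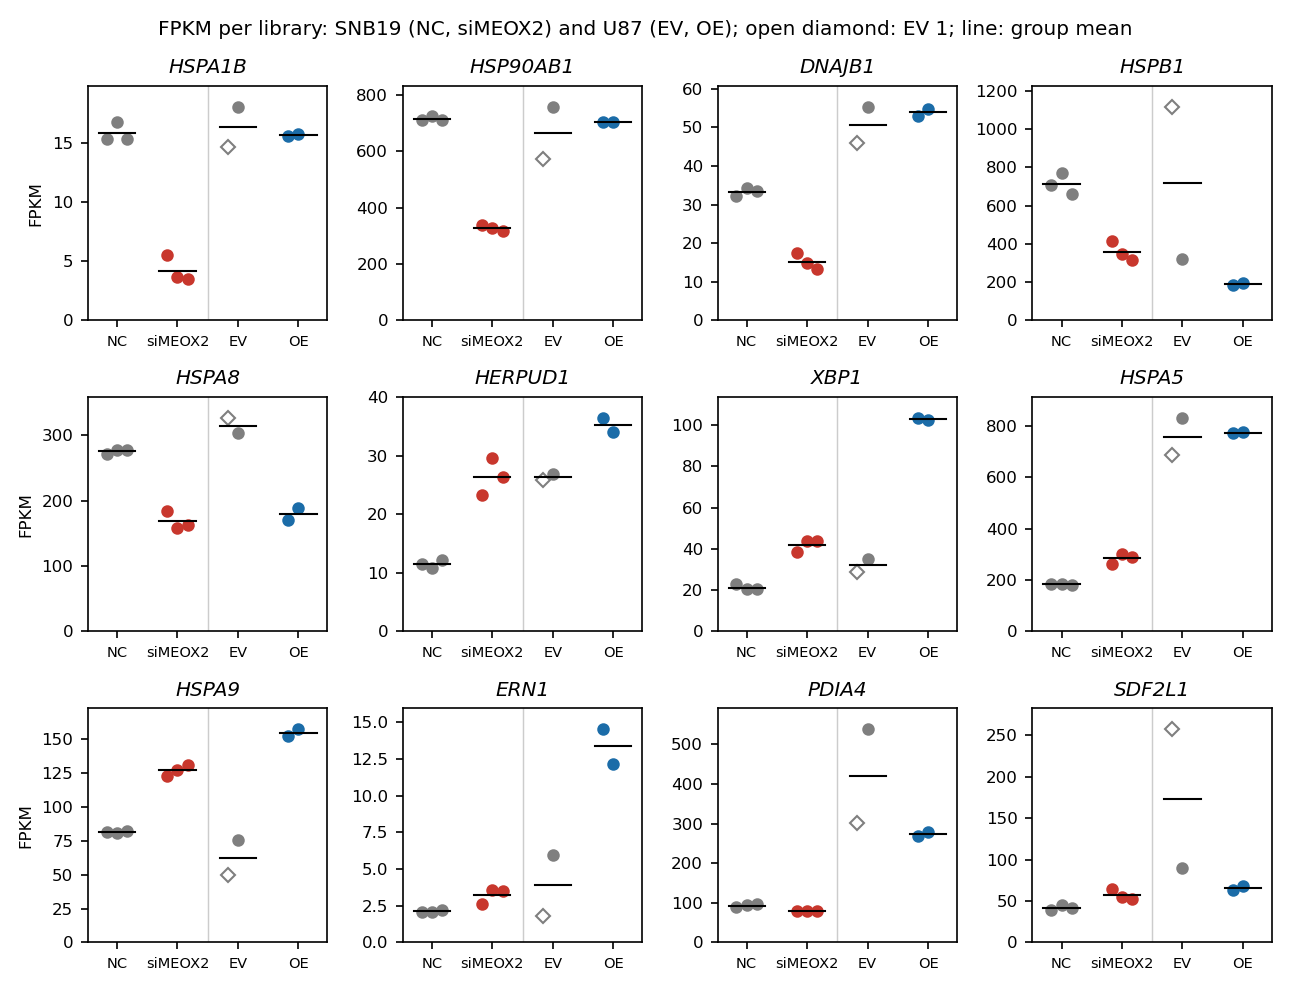
FPKM of 12 members in each library, on linear axes that start at 0, with NC and siMEOX2 (SNB19) left and EV and OE (U87) right of the grey line; horizontal bars are group means and the open diamond is EV 1. HSPA1B, HSP90AB1, DNAJB1, HSPB1 and HSPA8 were lower in siMEOX2 than in NC in every library, HERPUD1, XBP1, HSPA5 and HSPA9 higher, and XBP1, HSPA9 and ERN1 were higher in both OE libraries than in either EV library.

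Beside the members, 5 further gene lists covered the rest of the machinery. The PERK and ATF4 branch, the arm of the unfolded protein response that the members leave out, moved most: 11 of 12 genes rose and 1 fell in SNB19, with a median log2 fold change of 1.62. CHAC1, a glutathione-degrading enzyme induced by ATF4, was 5.49 to 8.16 FPKM in NC and 73.6 to 82.2 in siMEOX2 (11.0-fold higher, log2 3.46 ± 0.09). ASNS, asparagine synthetase, at most 0.425 FPKM in NC, and DDIT3 (CHOP) rose by 2.94 ± 0.34 and 2.66 ± 0.12 (log2). EIF2AK3, which encodes PERK itself, fell by 0.37 ± 0.12 (log2). ATF4 was 91.2 to 97.6 FPKM in NC and 182 to 189 in siMEOX2, a rise of 0.89 ± 0.05 (log2).

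The other lists moved less. Of 51 further ER quality control genes 9 rose and 24 fell (median −0.12), led by the oxidase ERO1A upward (1.21 ± 0.06, log2) and the mannosidase MAN1A1 downward (−1.11 ± 0.07, log2). Of 39 tested genes of other heat shock and HSP90 machinery 8 rose and 16 fell (median −0.14). The heat shock factor HSF2 rose by 0.58 ± 0.10 and HSPA6, a strictly inducible Hsp70, fell by 0.79 ± 0.26 (log2). Of the 8 subunits of the CCT chaperonin, which folds actin and tubulin, 5 rose and 1 fell (median 0.17). Of 11 other mitochondrial chaperones and proteases 6 rose and 1 fell (median 0.34), with GRPEL2, a cofactor of HSPA9, at 1.11 ± 0.07 and the protease LONP1 at 0.79 ± 0.05 (log2).

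MEOX2 overexpression in U87 was measured with 2 against 2 libraries, and the calls depended on which EV libraries were used. With both EV libraries, edgeR called 0 of 14180 genes (0.0%) and 0 of 38 members. Even MEOX2, the gene that was overexpressed, did not pass in that fit (log2 15.3 ± 0.64, adjusted p = 0.12). A lack of calls there therefore does not show that a member was unchanged. At an unadjusted p below 0.05 the numbers were 2643 genes and 9 members, and DESeq2 called 991 genes and 6 members. XBP1, for example, was 28.96 and 35.1 FPKM in EV and 103 and 103 FPKM in OE, yet its fold change carried an adjusted p of 0.16 (log2 1.44 ± 0.28). In FPKM, both OE libraries lay above both EV libraries in 15 of 38 members and below both in 10, against 35.5% and 22.0% of all tested genes. Without EV 1, 10 members rose and 14 fell, against 23.3% of genes higher and 24.2% lower. In that fit the spread comes from the OE pair, and EV 2, which is then alone, is assumed to vary like it. With EV 1 as the only control, under the same assumption, 13 members rose and 15 fell, against 36.0% of genes higher and 35.2% lower.

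Against each EV library in turn, 6 of 38 members were higher in OE and 10 lower both times by adjusted p, against 16.1% and 15.0% of 14591 genes. The OE libraries are the same in both comparisons, so these are not independent. The higher ones were XBP1, ERN1, HSPA9, CHORDC1, DNAJB9 and SEL1L. XBP1 was 1.54 ± 0.12 higher against EV 2 and 1.39 ± 0.12 higher against EV 1 (log2). ERN1, the gene of the IRE1 sensor, was 1.82 and 5.97 FPKM in EV and 14.5 and 12.2 in OE, which gave log2 values of 1.15 ± 0.12 and 2.43 ± 0.14. HSPA9 was 49.5 and 75.8 FPKM in EV and 153 and 157 in OE, and its log2 values were 1.02 ± 0.12 and 1.20 ± 0.14. DNAJB9, an ER Hsp40 and IRE1 regulator, was 4.41 and 8.27 FPKM in EV and 13.8 and 14.98 in OE. CHORDC1 was 1.58 and 3.29 FPKM in EV and 6.78 and 7.08 in OE, and SEL1L, the scaffold of ER-associated degradation, was 12.9 and 42.3 FPKM in EV and 66.1 and 59.5 in OE.

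The 10 lower members were HSPB1, HSPE1, SDF2L1, CRELD2, HSPA8, PDIA4, DNAJB11, CALR, HSPD1 and HSP90AA1. PDIA4 was 302 and 538 FPKM in EV and 270 and 279 in OE, with log2 values of −0.98 ± 0.11 against EV 2 and −0.58 ± 0.13 against EV 1. HSPA8 was 326 and 304 FPKM in EV and 170 and 189 in OE (log2 −0.77 ± 0.11 and −1.31 ± 0.13). HSPD1 was 147 and 183 FPKM in EV and 138 and 147.5 in OE, so its groups overlapped in FPKM (log2 −0.37 ± 0.11 against EV 2 and −0.48 ± 0.12 against EV 1). For the short genes the choice of library set the size: HSPB1 was −0.75 ± 0.11 against EV 2 and −2.99 ± 0.13 against EV 1, and SDF2L1 was −0.47 ± 0.11 and −2.42 ± 0.11 (log2). HYOU1 and PDIA6 changed direction with the library, from −0.32 to 1.49 and from −0.30 to 0.64 (log2), so no direction is given for them. HSP90B1 was 651 and 434 FPKM in EV and 456 and 465 in OE, within the span of the EV libraries, and was lower against EV 1 alone. HSPA5 was 684 and 828 FPKM in EV and 771 and 773 in OE, and HSP90AB1 was 572 and 757 in EV and 704 and 703 in OE. Their OE values lay between the EV values too, with 95% intervals of −0.33 to 0.11 and −0.33 to 0.10 (log2) against EV 2. CRYAB, a small heat shock protein of astrocytes, had 23 and 5 counts in EV and 29 and 46 in OE, and passed the test against EV 2 alone. HSPA1A had 8 and 5 counts in EV and 8 and 2 in OE and was not tested.

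**Figure D4:**
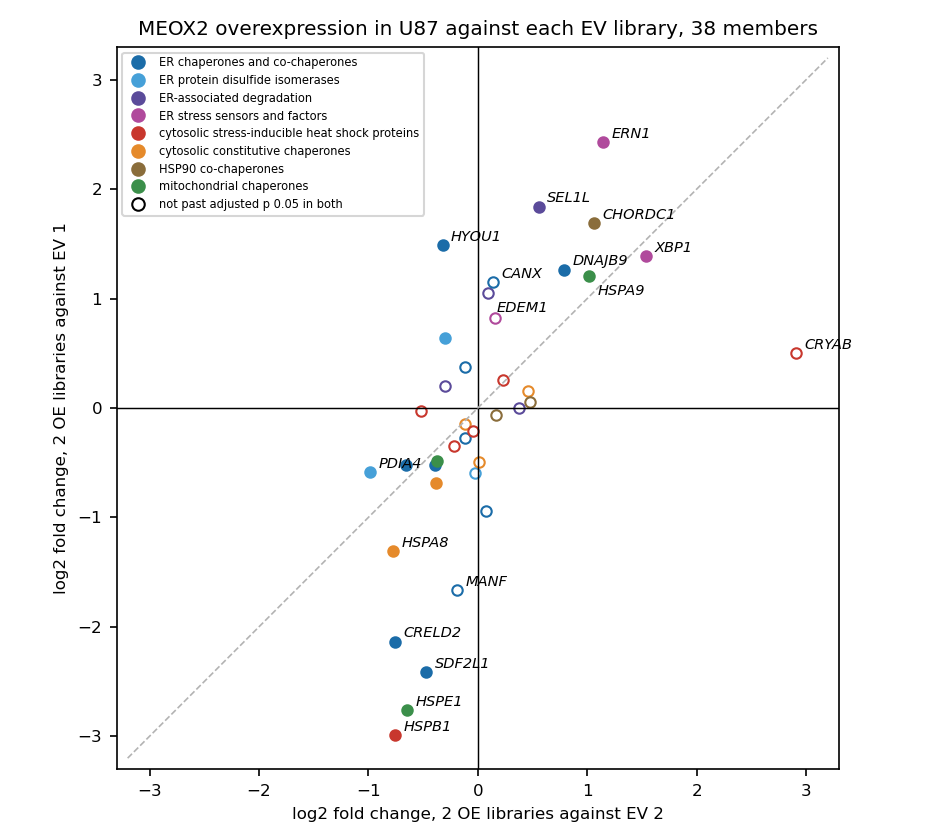
Log2 fold change of the 2 OE libraries against EV 2 (horizontal) and against EV 1 (vertical) for 38 members; filled points passed adjusted p 0.05 both times and the dashed line marks equal values. XBP1 and HSPA9 lie near the line, HSPB1, HSPE1, SDF2L1 and CRELD2 far below it, and HYOU1 and PDIA6 on opposite sides of 0.

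The PERK and ATF4 list was also higher in OE. Without EV 1, 11 of 12 genes rose and none fell (median log2 1.34), and with EV 1 as the only control 10 rose and 1 fell. STC2, a secreted glycoprotein induced by ATF4, was 13.3 and 21.5 FPKM in EV and 209 and 200 in OE, and PPP1R15A (GADD34), which reverses PERK signalling, was 32.1 and 31.2 in EV and 237 and 241 in OE. DDIT3 depended on the control, at 101 and 30.5 FPKM in EV and 54.3 and 64.6 in OE. With both EV libraries edgeR called 0 genes of any of the 5 lists, and 7 of 12 PERK and ATF4 genes, 7 of 51 ER quality control genes, 8 of 40 heat shock genes and 0 in the other lists had an unadjusted p below 0.05. In the list of other heat shock machinery, the median log2 fold change was 0.07 without EV 1 and −0.29 with EV 1 as the only control. Genes moved both ways, without EV 1 among them HSPA6 (3.73 ± 0.41) upward and HSPB7 (−2.43 ± 0.62) and HSPB6 (−2.08 ± 0.34) downward (log2). HSPB7 was at most 0.710 FPKM in any library. HSPB6 overlapped between the groups, at 1.04 and 3.84 FPKM in EV and 0.417 and 1.35 in OE. Of the further ER quality control genes 6 rose and 15 fell without EV 1 (17 and 26 with EV 1 as the only control), with KDELR3, a receptor that returns ER proteins, at −1.75 ± 0.19 (log2). Of the 8 CCT subunits 2 were higher and 2 lower without EV 1, but 0 and 4 with EV 1 as the only control. Of 11 other mitochondrial genes 4 rose and 0 fell without EV 1, but 5 and 5 with EV 1 as the only control, so neither list has a direction that holds under both.

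Knockdown in SNB19 and overexpression in U87 share no library, so their calls can be set side by side. Without EV 1, 19 members were called in both, and 15 of the 19 moved in the same direction in both lines (78.9%, against 66.5% of the 4094 genes called in both). The 7 higher in both were HERPUD1, XBP1, ERN1, HSPA4, HSPA9, CHORDC1 and FKBP4. The 8 lower in both were DNAJB11, CALR, PDIA4, PDIA6, CRELD2, HSPA8, HSPB1 and BAG3. SDF2L1, SYVN1, HSPD1 and HSP90AA1 rose after knockdown and were lower in OE than in EV 2. PDIA6 changed direction with the EV library, at 34.8 and 90.4 FPKM in EV and 74.9 and 73.3 in OE. The OE values also lay between the EV values for BAG3 (29.6 and 56.3 FPKM in EV, 41.5 and 37.6 in OE). The same held for SYVN1 (7.70 and 14.8 FPKM in EV, 12.8 and 11.4 in OE). With EV 1 as the only control, 15 of 21 members moved the same way (71.4%, against 56.7% of genes). XBP1, ERN1, HSPA9 and CHORDC1 were higher, and DNAJB11, CALR, PDIA4, CRELD2, HSPA8 and HSPB1 lower, under either control. Whether the same sign in both lines comes from MEOX2 or from what the transfected and transduced cells share was not tested.

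The 2 effects differed in 10 of 38 members by a test of the difference in all 10 libraries, against 15.7% of all genes, and in 26 without EV 1, against 35.5%. The count of 10 fell to between 3 and 5 without any 1 of the SNB19 libraries. Of all genes, 1346 to 1514 of 17087 to 17205 then passed, against 2716 of 17312 with all 10 libraries. The count of members thus fell along with that of all genes, and it also depended on which OE and EV libraries were used. HSPA1B (−1.70 ± 0.28, adjusted p = 0.0060) and HSP90AB1 (−1.08 ± 0.18, adjusted p = 0.0058) were the members whose difference passed without any single library, as SNB19 effect minus U87 effect on the log2 scale. Both fell on knockdown in SNB19. In FPKM, their OE levels lay between those of the EV libraries in U87. After edgeR's scaling their log2 values against both EV libraries were −0.30 ± 0.25 and −0.15 ± 0.33, and neither passed the test. Knockdown lowers MEOX2 and overexpression raises it, so a gene that followed MEOX2 alike in both lines would also differ in this test.

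The control groups of the lines, NC and EV, also differed in how much chaperone mRNA they held. The lines, the siRNA transfection and the lentivirus with selection cannot be told apart here. With both EV libraries, 17 of 37 members were higher in U87 EV than in SNB19 NC and 1 lower, against 20.0% and 21.4% of all genes. Without EV 1, 32 were higher and 4 lower, against 34.5% and 36.3%, with EV 2 alone assumed to vary like the NC libraries. Without any 1 NC library the counts dropped to 7 or 8 higher and 0 lower (edgeR, both EV libraries), and 3244 to 3322 genes passed. The median log2 difference over the members was 0.68 (0.78 without EV 1) and over all genes −0.02 (−0.07 without EV 1). Of the 21 members of the ER groups, 13 were higher in U87 with both EV libraries and 21 without EV 1. Without EV 2 instead, ATF6, CANX and HYOU1 were lower in U87, at −0.41, −0.83 and −1.04 (log2).

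HSPA5 was 181 to 185 FPKM in NC and 684 and 828 in EV, 5.34-fold higher (log2 2.42 ± 0.20, and 2.33 ± 0.04 without EV 1). PDIA4 was 89.4 to 96.1 FPKM in NC and 302 and 538 in EV (log2 2.51 ± 0.21, and 2.69 ± 0.04 without EV 1). HSP90B1 was 118 to 124 FPKM in NC and 651 and 434 in EV, and CALR 311 to 330 in NC and 691 and 857 in EV. For HSPA5, PDIA4, HSP90B1 and CALR the lowest EV library exceeded the highest NC library, and the call held without any single library. Among the cytosolic members, HSPH1 was 30.6 to 32.2 FPKM in NC and 11.7 and 16.1 in EV (log2 −0.82 ± 0.16), a call that was lost without any 1 NC library (adjusted p of 0.089 to 0.092). HSPA8 was 272 to 278 FPKM in NC and 326 and 304 in EV, a difference of 0.60 ± 0.25 that did not pass the test with both EV libraries and of 0.30 ± 0.04 that passed without EV 1 (log2). HSPB1 turned from 0.52 ± 0.63 with both EV libraries to −1.01 ± 0.06 without EV 1 (log2).

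**Figure D5:**
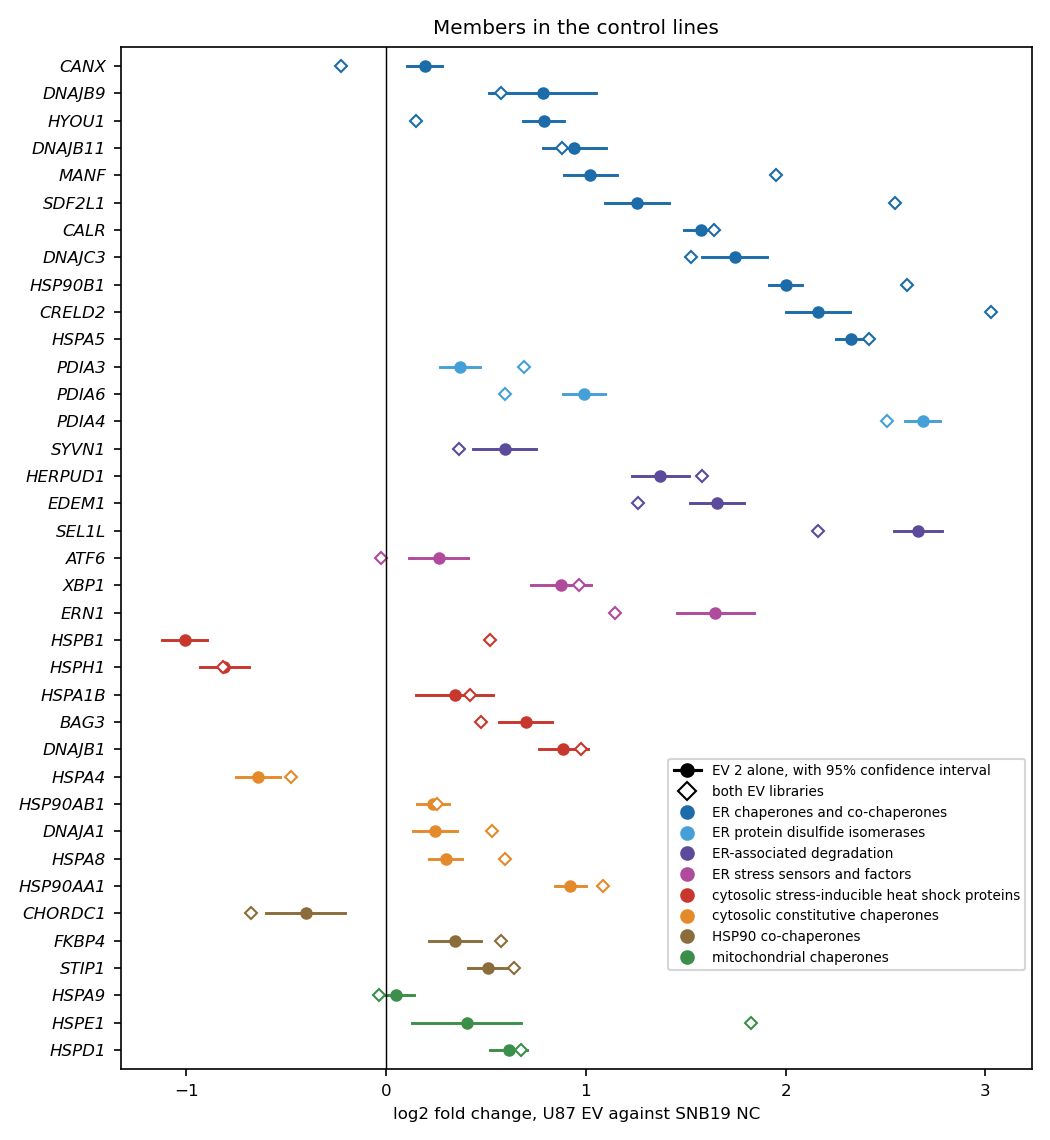
Log2 difference of U87 EV against SNB19 NC for 37 members by role; filled points with 95% confidence intervals use EV 2 alone and open diamonds use both EV libraries. With EV 2 alone the 21 ER members lie right of 0, while HSPB1, HSPH1, HSPA4 and CHORDC1 lie left of it, and the diamonds of HSPB1, SDF2L1 and CRELD2 lie well to the right of their filled points.

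The order of the members by level per length is given last. In NC, HSP90AB1 (711 to 725 FPKM) and HSPB1 (661 to 771) led and overlapped, followed by CALR (311 to 330), HSP90AA1 (295 to 296), HSPA8 (272 to 278) and HSPA5 (181 to 185), whose ranges did not touch. In EV, CALR (691 and 857 FPKM), HSPA5 (684 and 828), HSPB1 (1114 and 319) and HSP90AB1 (572 and 757) had the highest means, with ranges that overlapped. In OE, HSPA5 (771 and 773 FPKM) led, followed by HSP90AB1 (703 and 704), CALR (657 and 658) and HSP90B1 (456 and 465), again with ranges that did not touch.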

How the data were processed

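Poly(A) mRNA of 10 libraries was sequenced, and the deposited table holds raw read counts and FPKM for 34567 genes. Per the labels, the authors aligned the reads with HISAT2 to GRCh38, counted them per gene with HTSeq 0.11.2 and used DESeq2 1.26.0. The deposited FPKM values, which the authors scaled by gene length and library total, serve for levels only, and all tests used the counts. FPKM lacks the scaling factors of the fits, so its ratios can differ from the fold changes, as in comparisons with EV 1. Whether counting used strand is not given in the sources used here.

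Counts were fitted with edgeR 4.0.16 in R 4.3.3 (TMM factors, filterByExpr with a minimum count of 10, quasi-likelihood test), separately for siMEOX2 against NC, OE against EV and EV against NC, and for the difference of the effects in all 10 libraries. Benjamini-Hochberg adjustment ran over all tested genes, with a threshold of 0.05. The fits were tested on simulated counts. DESeq2 1.42.0, other scaling factors and filters, left-out libraries, a replicate block and the study's threshold were alternatives. All 39 members are accounted for. Statistics are given for MEOX2, for a set of members fixed by role (such as HSPA5, XBP1 and HSPA1B) and for members past the threshold (at most 12 per direction). Genes named from the other lists were mostly among the top 3 per direction, and not all of those are named. Members and lists were chosen with earlier results of these data known. The labels give NC and siMEOX2, and EV and OE, the same replicate numbers, but do not say that a number marks a shared culture, so the fits have no block. The titles of both OE libraries carry OE-2 in brackets, and their numbers 1 and 2 were taken from the part before it. The treatment labels of the U87 libraries do not all name MEOX2, and all were taken as MEOX2 from the titles. Depth was 12533775 to 16560324 counts per library, and intervals cover 95%. Positions are from GENCODE 29, in which all 34567 identifiers were found. Promoter sequences are from RefSeq (GRCh38.p14). Figures were drawn with matplotlib 3.10.9.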

Additional observations from a re-analysis of the deposited data

Results flagged for a closer look

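In 10 members the effect of knockdown in SNB19 differed from the effect of overexpression in U87 by edgeR's test of the difference itself, with all 10 libraries. The values below are the SNB19 effect minus the U87 effect on the log2 scale. The difference was positive for HSPA5 (0.74), SDF2L1 (2.12), HERPUD1 (0.93) and HSPD1 (0.68). It was negative for DNAJB9 (−0.90), HSPA1B (−1.70), HSPH1 (−0.71), HSP90AB1 (−1.08), DNAJB1 (−1.08) and CHORDC1 (−1.08). Without EV 1 all 10 kept their sign and passed the test, at 0.61 for HSPA5, 0.78 for SDF2L1, 0.68 for HERPUD1, 0.57 for HSPD1, −0.74 for DNAJB9, −1.82 for HSPA1B, −0.75 for HSPH1, −1.14 for HSP90AB1, −1.21 for DNAJB1 and −0.86 for CHORDC1. SDF2L1, a short gene, thus moved from 2.12 to 0.78. HSPA1B and HSP90AB1 passed under all 15 alternatives and DNAJB1 under 14 of them, the exception being the fit without OE replicate 2 (adjusted p = 0.055). The other 7 lost the call without at least 6 of the 8 SNB19 and OE libraries taken singly. The siRNA, which lowers MEOX2, and the lentivirus, which raises it, go with the lines. Line, method and direction of the MEOX2 change therefore cannot be told apart. A gene that followed MEOX2 alike in both lines would also pass this test.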

How the results depend on the processing

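In the knockdown, 24 of the 30 member calls passed without each library in turn, and the replicate block gave 8601 genes and the same 13 higher and 17 lower counts. The correlations of same-numbered deviations were −0.034, −0.074 and 0.078 in SNB19 and −0.342 in U87. With 2 libraries a group the deviations mirror each other, so any pairing in U87 gives the same size with either sign. These values cannot show whether a number marks a shared culture. The U87 value and block rest on OE numbers read from titles that carry a second number for both libraries. With all 10 libraries in the fit, 2725 genes, 4 members higher and 7 lower passed in the knockdown, and with the study's threshold 1669, 1 and 4. Upper-quartile factors moved the share of higher calls from 43.3% to 55.6% of members and from 49.1% to 57.2% of genes.

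For overexpression the block gave 468 genes and no member, and the crossed pairing, chosen after seeing the data, gave 1152 genes with 1 member higher and 1 lower. The numbers of genes, members higher and members lower were 991, 2 and 4 with DESeq2, 1863, 3 and 4 with no filter, 4538, 6 and 10 with all 10 libraries and 2160, 4 and 4 with the study's threshold. Leaving out 1 library gave 38 to 10616 genes, 0 to 13 members higher and 0 to 15 lower. Without EV 1, PDIA6 turned to −0.30 and HYOU1 to −0.32 (0.64 and 1.49 without EV 2, log2).

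For the control lines, leaving out 1 library gave 3244 to 13629 genes, 7 to 32 members higher and 0 to 7 lower. All 10 libraries gave 26 higher and 3 lower, upper-quartile factors 2 lower and the study's threshold 0 lower. ATF6 was 0.26, CANX 0.19, HSPB1 −1.01 and HYOU1 0.79 without EV 1, and −0.41, −0.83, 1.21 and −1.04 without EV 2 (log2).

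For the difference of effects, leaving out 1 library gave 1018 to 10034 genes, 0 to 16 members positive and 2 to 17 negative, and DESeq2 gave 7 positive. HSP90B1 was −0.27, HYOU1 0.38 and HSPB1 −0.38 without EV 1, and 0.79, −1.40 and 1.90 without EV 2 (log2). The cause was not tested. With 2 libraries a group and EV 1 apart, the U87 fits limit what can be called, and genes with few counts, such as CRYAB and HSPA1A, cannot be ordered at this depth.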

Other observations

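Summed over the 7 members of the stress-inducible cytosolic group, the level was 780 to 895 FPKM in NC and 382 to 491 in siMEOX2. HSPB1 alone made up 661 to 771 and 315 to 413 FPKM of these sums. Summed over the 3 mitochondrial chaperones the level was 222 to 227 in NC and 303 to 308 in siMEOX2. The ratio of HSPA5 to HSPA8, the ER and the cytosolic Hsp70, was 0.653 to 0.679 in NC and 1.42 to 1.89 in siMEOX2. In U87 it was 2.10 and 2.72 in EV and 4.53 and 4.09 in OE. The ratio of HSP90AB1 to HSP90AA1, which fell in every siMEOX2 library, was 1.25 and 1.51 in EV and 1.85 and 1.77 in OE. These ratios were chosen after the values were seen, and no test was run on them.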
